A study of Mus musculus with 21 samples.

Results

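The genes described here are 36 mouse genes of mitosis and the kinetochore, the protein assembly that holds a chromosome to the spindle. They were taken by name: every array probe whose gene symbol was one of the 36 was used, out of 19057 genes with a probe of their own. Of these members, 35 had a probe, 69 probes in all, and 31 passed the filter on dim signals together with 11649 genes in total. Ccnb1 had no probe under its symbol, and Ccnb2, Bub1, Cenpe and Kif20a gave log2 signals of 4.4 to 5.29 and were detected on at most 1 of the 21 arrays. These 4 genes were therefore not measured here, which says nothing about their level in the cells.

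The study set germ cell induction from mouse embryonic stem cells that lack the transcription factor Otx2 against that from wild-type cells, and asked whether the induced cells resemble primordial germ cells with and without cytokines. Cells carrying SSEA1 and CD61 had been sorted on day 6 from aggregates and are called PGCLC (primordial germ cell-like cells), and epiblast-like cells (EpiLC) were the state on day 2 from which the aggregates were made. There were 7 groups of 3 arrays: PGCLC of the Otx2-/-; Blimp1-/- line (Otx2/Blimp1-null), PGCLC of the Otx2-/- line (Otx2-null, carrying the Otx2 GFP and lacZ alleles), day-6 cells of Otx2-null aggregates grown in basal medium without cytokines and sorted in the same way, PGCLC of wild-type E14Tg2a cells (WT), and EpiLC of the Otx2/Blimp1-null, Otx2-null and WT lines. The PGCLC cytokines were BMP4, LIF, BMP8a, SCF and EGF, and EpiLC had been grown with activin A and FGF2. The Otx2/Blimp1-null line lacks Otx2 as well as Blimp1, so that no group lacks Blimp1 alone. Each genotype was represented by 1 line, and PGCLC differed from EpiLC in day, medium, aggregation and sorting, which cannot be told apart. The labels do not say whether the replicates were separate cultures, so p-values measure only the spread between these samples, which may be technical.

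In a dividing cell, cyclin-dependent kinase 1 with its cyclins starts mitosis, Polo-like and Aurora kinases build the spindle, and the NDC80 complex of Ndc80, Nuf2, Spc24 and Spc25 binds microtubules to kinetochores. The checkpoint proteins Mad2l1 and Bub1b hold back Cdc20 and the anaphase-promoting complex until chromosomes are attached, after which securin (Pttg1) is destroyed and separase (Espl1) cuts cohesin. Many of these genes are transcribed late in the cell cycle through promoter elements known as CHR (cell cycle genes homology region) and CCAAT boxes. Primordial germ cells are known to slow or pause their cycle during their development. In bulk RNA, a lower signal can reflect fewer cells in mitosis or less RNA per cell, and these cannot be told apart.

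Promoters of 6 members on which the comparisons below turn are printed to show how far they share these elements. The windows run from 250 bases before to 50 after the start site (RefSeq, GRCm38.p6), 5′ to 3′ on the gene's strand, with capitals marking CHR (TTTGAA or TTCGAA, or TTCAAA on the other strand) and CCAAT (or ATTGG on the other strand). Nuf2 (chr1:169531415-169531714 on the minus strand), Mad2l1 (chr6:66534971-66535270 on the plus strand) and Spc25 (chr2:69206164-69206463 on the minus strand) encode transcripts that were lower in WT and Otx2-null PGCLC than in EpiLC.
Nuf2: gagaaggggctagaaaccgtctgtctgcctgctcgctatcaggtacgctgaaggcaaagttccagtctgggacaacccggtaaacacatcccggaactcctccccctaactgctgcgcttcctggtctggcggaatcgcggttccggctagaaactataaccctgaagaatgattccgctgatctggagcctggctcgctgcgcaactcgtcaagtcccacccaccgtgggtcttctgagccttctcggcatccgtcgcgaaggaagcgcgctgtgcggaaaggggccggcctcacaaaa
Mad2l1: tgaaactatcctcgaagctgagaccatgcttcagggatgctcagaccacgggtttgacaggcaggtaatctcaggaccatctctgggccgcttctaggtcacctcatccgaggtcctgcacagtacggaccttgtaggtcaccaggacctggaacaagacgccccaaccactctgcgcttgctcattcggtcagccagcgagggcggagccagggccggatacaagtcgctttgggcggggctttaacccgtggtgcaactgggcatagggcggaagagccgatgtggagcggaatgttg
Spc25: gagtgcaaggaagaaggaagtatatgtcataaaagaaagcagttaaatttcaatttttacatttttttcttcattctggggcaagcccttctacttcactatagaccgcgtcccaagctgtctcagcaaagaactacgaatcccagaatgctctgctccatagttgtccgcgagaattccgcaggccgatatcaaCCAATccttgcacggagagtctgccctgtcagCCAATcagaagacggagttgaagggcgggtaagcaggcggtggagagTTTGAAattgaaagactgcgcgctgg
Plk1 (chr7:122159185-122159484 on the plus strand), Bub1b (chr2:118597961-118598260 on the plus strand) and Kif2c (chr4:117178723-117179022 on the minus strand) encode transcripts that were higher there.
Plk1: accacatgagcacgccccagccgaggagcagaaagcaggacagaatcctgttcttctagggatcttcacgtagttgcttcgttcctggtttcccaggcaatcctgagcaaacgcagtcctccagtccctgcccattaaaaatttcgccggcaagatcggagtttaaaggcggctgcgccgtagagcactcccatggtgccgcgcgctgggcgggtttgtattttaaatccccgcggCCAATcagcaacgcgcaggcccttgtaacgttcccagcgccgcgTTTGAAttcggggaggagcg
Bub1b: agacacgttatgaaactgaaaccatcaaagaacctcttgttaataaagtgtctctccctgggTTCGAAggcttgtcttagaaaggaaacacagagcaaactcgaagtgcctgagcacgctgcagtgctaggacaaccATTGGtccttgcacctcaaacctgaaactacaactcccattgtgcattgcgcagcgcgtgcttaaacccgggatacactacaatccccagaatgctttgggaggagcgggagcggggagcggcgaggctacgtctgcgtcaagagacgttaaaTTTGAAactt
Kif2c: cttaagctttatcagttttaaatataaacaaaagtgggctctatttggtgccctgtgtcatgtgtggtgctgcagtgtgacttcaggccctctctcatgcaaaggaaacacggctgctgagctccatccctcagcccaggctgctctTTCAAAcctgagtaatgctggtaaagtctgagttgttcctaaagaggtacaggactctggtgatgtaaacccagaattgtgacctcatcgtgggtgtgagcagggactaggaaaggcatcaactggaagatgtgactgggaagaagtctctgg

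The windows of Nuf2 and Mad2l1 held neither motif. Spc25 had 1 CHR and 2 CCAAT motifs, Plk1 1 of each, Bub1b 2 CHR and 1 CCAAT, and Kif2c 1 CHR only. Promoter windows were found for 29 of the 36 members, 31 windows in all because Prc1 and Bub3 had 2 each. A CHR stood in 24 of the 31 windows (77.4%) and in 19.2% of all 32851 mouse promoter windows. A CCAAT stood in 24 of the 31 (77.4%) and in 37.4% of all windows, and both motifs in 71.0% against 7.52%. The 2 motifs were searched separately on both strands. A match is a description of the letters and not evidence of binding.

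Signals were bright enough to measure 26 of the 31 members on every array, whereas Ccna2, Cdc25b, Ttk, Cenpf and Pttg1 lay near the background and were detected on only some. Of the 31 members, 17 had 1 kept probe, among them Nuf2, Ndc80, Prc1, Kif2c, Plk1, Espl1, Incenp and Cep152. Changes of these genes could not be compared with a second probe. The number of probes detected was 15961 to 16507 of 45281 on Otx2/Blimp1-null PGCLC arrays, 17527 to 19556 on the other day-6 arrays and 14088 to 15861 on EpiLC arrays. The median SD of the members within a group was 0.16 to 0.21 on the log2 scale, against 0.15 to 0.22 for all genes. The Otx2 probe gave 9.62 ± 0.22 in Otx2-null PGCLC and 7.63 ± 0.07 in WT PGCLC (SD, n = 3 each), and its place relative to the deleted part is not given in the sources used here, so it does not check the genotype. Prdm1, the gene of Blimp1, had no probe that passed the filter. Of 8 germ cell markers tested, 7 rose in WT PGCLC over WT EpiLC, as did all 7 naive pluripotency markers.

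**Figure D1:**
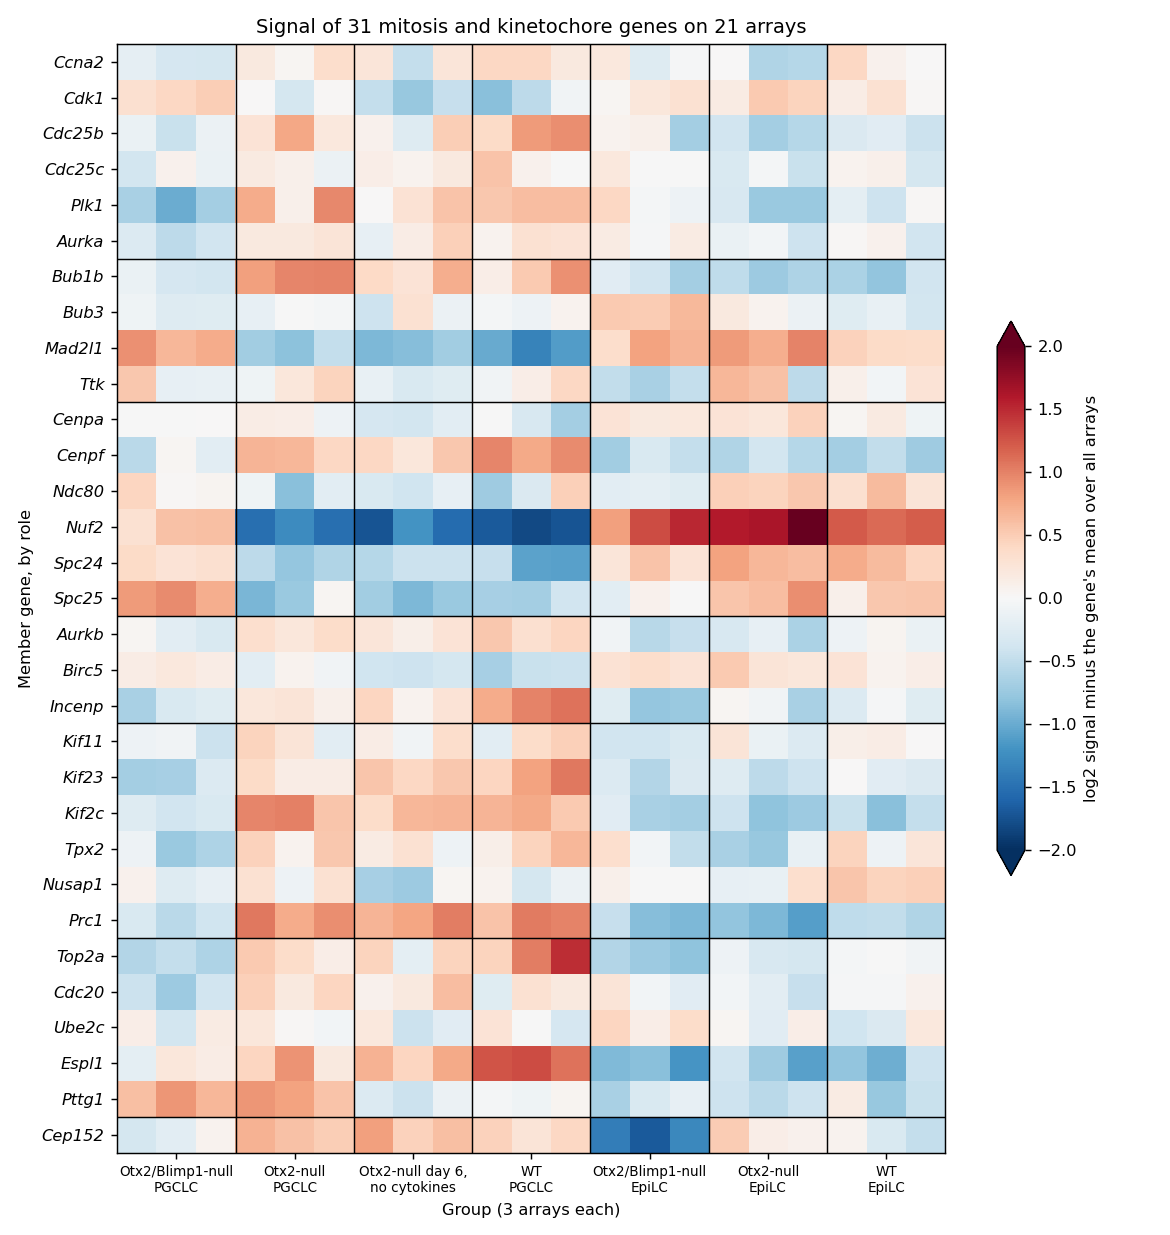
Log2 signal of each of the 31 tested members (rows, ordered by role and separated by lines) on each of the 21 arrays (columns, 3 per group), after subtracting the member's mean over all arrays. Nuf2, Mad2l1, Spc24 and Spc25 are low in Otx2-null PGCLC, Otx2-null day-6 cells without cytokines and WT PGCLC, where Prc1, Bub1b and Kif2c are high, and Cep152 is lowest in Otx2/Blimp1-null EpiLC.

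In WT PGCLC against WT EpiLC, 12 of 31 members rose and 9 fell at an adjusted p under 0.05 (limma, Benjamini-Hochberg over all genes), where 62.8% of all genes were called, 35.4% as higher and 27.4% as lower. The groups did not overlap for 20 members and for 66.3% of all genes. These shares lie near those of all genes and are no result about the set, so that the description below is of its single members. The median log2 difference was 0.24 for the members and 0.06 for all genes, and the members ranged from -2.92 to 1.94. Of 6 tested centromere and outer kinetochore genes 1 rose and 5 fell, with a median of -0.77. Of 6 spindle and cytokinesis genes 3 rose and 1 fell, with a median of 0.58.

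Nuf2, a globular-headed subunit of the NDC80 complex, had log2 signals of 5.83, 5.70 and 5.77 in WT PGCLC and 8.73, 8.64 and 8.71 in WT EpiLC. All 3 PGCLC arrays were far below the EpiLC arrays, and the difference of -2.92 ± 0.17 (SE) corresponded to a signal 7.58-fold lower (limma, adjusted p = 1.49e-12). Spc24, which anchors the complex at the inner kinetochore side, had 9.92, 9.31 and 9.30 in WT PGCLC and 11.13, 11.02 and 10.81 in WT EpiLC, a difference of -1.48 ± 0.16 (adjusted p = 2.13e-08). Its partner Spc25 had 8.49, 8.48 and 8.77 in WT PGCLC and 9.26, 9.70 and 9.71 in WT EpiLC, a difference of -0.97 ± 0.19 (adjusted p = 0.000124). Neither gene's groups overlapped, and a second probe of each fell as well, by 1.41 for Spc24 and by 1.17 for Spc25 on the log2 scale.

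Ndc80, the subunit that gives the complex its name, was less even, with 8.18, 8.61 and 9.38 in WT PGCLC and 9.22, 9.53 and 9.15 in WT EpiLC. One PGCLC array lay among the EpiLC arrays, and the fall of -0.58 ± 0.22 (adjusted p = 0.0269) lost its call without WT PGCLC replicate 1 (-0.31), WT PGCLC replicate 2 (-0.52) or WT EpiLC replicate 2 (-0.46). Cenpa, the histone that marks centromeres, fell by 0.38 on the log2 scale (adjusted p = 0.0305), a call lost without any one of WT EpiLC replicates 1 (-0.38) and 2 (-0.31) and WT PGCLC replicates 2 (-0.39) and 3 (-0.21). A dimmer probe of Cenpa fell by 0.81 (adjusted p = 0.007), and in Otx2-null induction by 1.45 where the brighter one gave -0.26 and did not pass the test. The exception in this group was Cenpf, a large protein of the outer kinetochore, which had 6.49, 6.28 and 6.47 in WT PGCLC and was not well above background in WT EpiLC at 4.84, 5.03 and 4.81. On this probe Cenpf was at least 2.41-fold higher in PGCLC, with the lowest detected signal of each EpiLC array taken in place of an undetected value (adjusted p = 1.29e-08). A dimmer probe, detected on 1 of 3 arrays in each group, gave -0.13 and did not pass the test, the mean of both gave 0.70, and the authors' normalized table gave only 0.09 for Cenpf on the log2 scale.

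Among checkpoint genes, Mad2l1, which forms the inhibitor of Cdc20 at unattached kinetochores, and Bub1b, which joins that inhibitor, moved apart. Mad2l1 had 10.37, 10.05 and 10.26 in WT PGCLC and 11.84, 11.76 and 11.75 in WT EpiLC, a difference of -1.56 ± 0.14 (adjusted p = 2.44e-09). Bub1b had 10.15, 10.55 and 10.93 in WT PGCLC and 9.39, 9.23 and 9.64 in WT EpiLC, a difference of 1.12 ± 0.18 (adjusted p = 7.39e-06). The groups of both genes stood apart, and a second probe of each made the same call, at -1.94 for Mad2l1 and 1.15 for Bub1b. Bub3 (0.24 ± 0.15) and the checkpoint kinase gene Ttk (0.05 ± 0.24) did not pass the test.

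**Figure D2:**
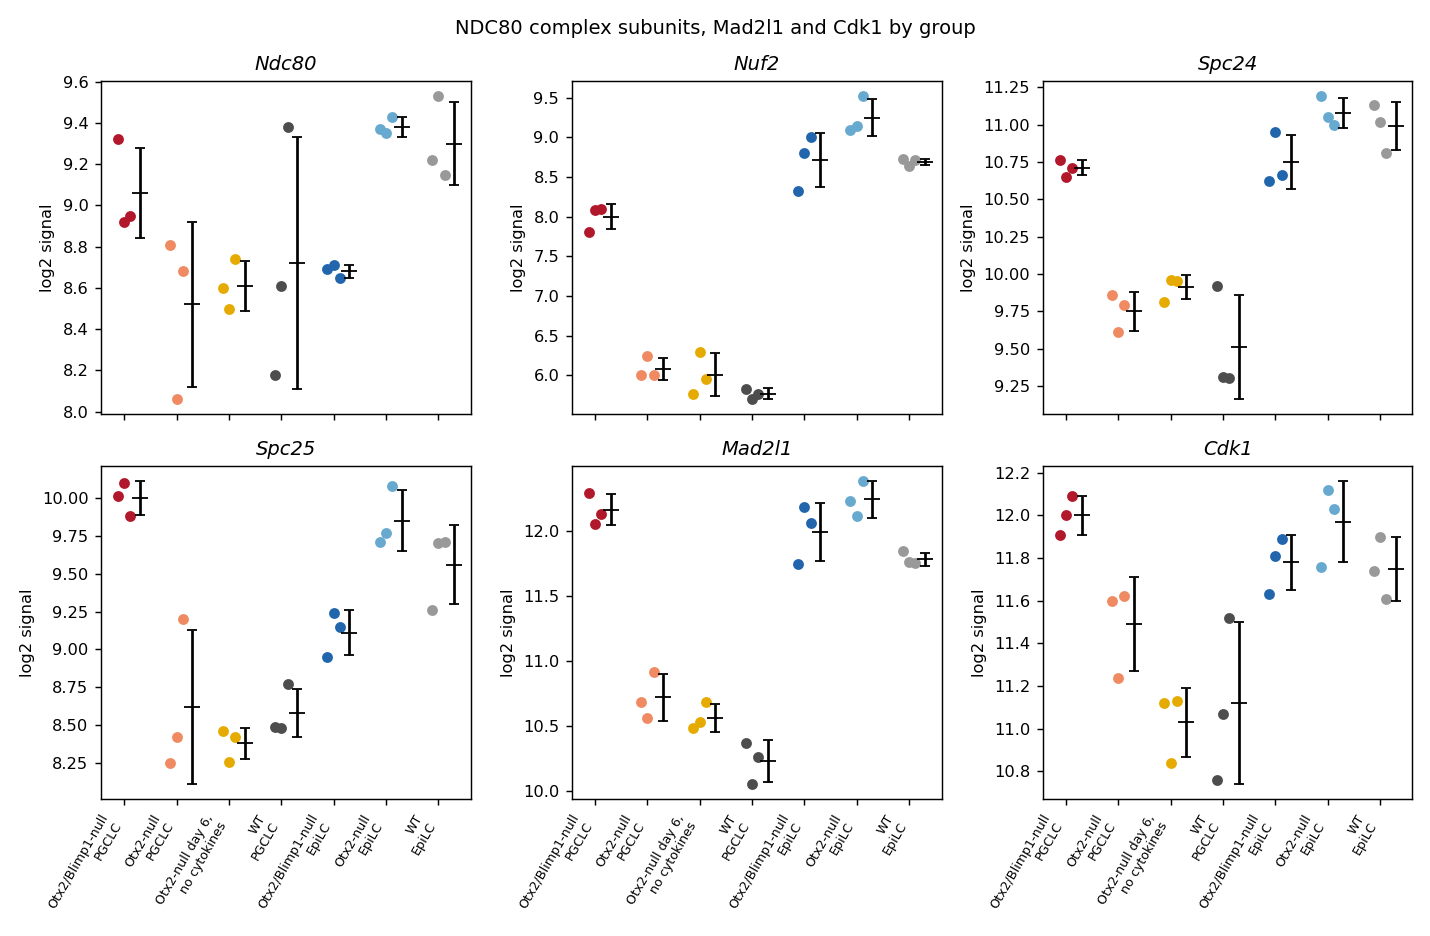
Log2 signal of the 4 NDC80 complex subunits, Mad2l1 and Cdk1 by group, with a point for each of 3 arrays and a bar for the mean ± SD. Nuf2 means are 8.00 in Otx2/Blimp1-null PGCLC, 5.77 to 6.08 in the other day-6 groups and 8.69 to 9.25 in EpiLC.

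The spindle genes that changed in WT cells mostly rose. Prc1, which bundles the antiparallel microtubules of the central spindle, had 12.61, 13.08 and 13.02 in WT PGCLC and 11.53, 11.54 and 11.44 in WT EpiLC, a difference of 1.40 ± 0.16 (adjusted p = 5.89e-08). Kif2c, a kinesin that takes microtubule ends apart at centromeres, had 10.91, 10.99 and 10.75 in WT PGCLC and 9.79, 9.39 and 9.76 in WT EpiLC, a difference of 1.24 ± 0.17 (adjusted p = 7.85e-07). Every PGCLC array exceeded every EpiLC array for both genes. Nusap1, which binds and stabilises spindle microtubules, went the other way by -0.62 ± 0.19 (adjusted p = 0.00554) on its brightest probe, while other probes gave -0.11 and 0.08 and the mean of its probes, -0.22, did not pass the test (adjusted p = 0.224), whereas the motor Kif11 (0.12 ± 0.19) and the Aurora A activator Tpx2 (0.22 ± 0.22) did not pass the test. Kif23, a kinesin of the midbody, rose by 0.93 ± 0.16 on its brightest probe, but 2 other kept probes gave -0.55, which also passed the test, and 0.04, and the mean of its probes gave 0.14.

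Espl1, the separase that opens cohesin at anaphase, showed the largest rise of the 31 members. It had 9.55, 9.59 and 9.37 in WT PGCLC and 7.5, 7.31 and 7.88 in WT EpiLC, a difference of 1.94 ± 0.20 or 3.83-fold (adjusted p = 1.26e-08). All 3 PGCLC arrays lay above all 3 EpiLC arrays, and the authors' normalized table gave a larger difference of 3.03 for Espl1. Top2a, which untangles sister chromatids, rose by 1.02 ± 0.20 on its brightest probe, while another probe fell by 0.60 and the mean of its probes was 0.09. Cdc20 (0.07 ± 0.17, with another probe that fell by 1.33), the ubiquitin-conjugating enzyme gene Ube2c (0.13 ± 0.20) and Pttg1 (0.32 ± 0.18) did not pass the test.

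Of the chromosomal passenger complex, which corrects faulty attachments, Incenp and Aurkb rose and Birc5 fell. The scaffold Incenp had 10.02, 10.27 and 10.36 in WT PGCLC and 9.01, 9.25 and 9.04 in WT EpiLC, a difference of 1.11 ± 0.18 (adjusted p = 1.07e-05). Birc5, or survivin, had 11.13, 11.35 and 11.36 in WT PGCLC and 12.07, 11.87 and 11.92 in WT EpiLC, a difference of -0.67 ± 0.13 (adjusted p = 7.43e-05). Its 2 other probes fell by 0.84 and 0.67. The kinase gene Aurkb rose by 0.49 ± 0.15 (adjusted p = 0.00672), so that members of 1 complex were called in both directions.

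Genes of mitotic entry were likewise divided. The kinase gene Plk1 had 11.51, 11.58 and 11.58 in WT PGCLC and 10.77, 10.56 and 10.99 in WT EpiLC, a rise of 0.78 ± 0.20 (adjusted p = 0.0018). Cdk1, the kinase that drives entry, had 10.76, 11.07 and 11.52 in WT PGCLC and 11.74, 11.90 and 11.61 in WT EpiLC, a fall of 0.64 on the log2 scale (SE 0.17, adjusted p = 0.00252). The 3 PGCLC arrays lay below the EpiLC arrays for Cdk1, but a dimmer probe with a mean log2 signal of 5.04 rose by 0.46. Cdc25b, a phosphatase that activates Cdk1, rose by 1.03 ± 0.22 on its brighter probe, which was detected on none of the 3 WT EpiLC arrays. Its other probe was detected on 2 of them and gave -0.42, and the mean of both, 0.31, did not pass the test. The centriole gene Cep152 rose by 0.61 ± 0.17 (adjusted p = 0.00262), and Ccna2 (0.17 ± 0.20), Cdc25c (0.28 ± 0.17) and Aurka (0.31 ± 0.16) did not pass the test.

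In Otx2-null PGCLC against Otx2-null EpiLC, 16 of 31 members rose and 7 fell, against 35.8% and 29.6% of all genes (65.4% called in all; 51.6% and 22.6% of the members), with a median of 0.41 for the members and 0.05 for all genes. Nuf2 had 6.00, 6.25 and 6.00 in Otx2-null PGCLC and 9.09, 9.14 and 9.52 in Otx2-null EpiLC, a difference of -3.16 ± 0.17 or 8.96-fold (adjusted p = 3.91e-13). Mad2l1 had 10.68, 10.56 and 10.91 in Otx2-null PGCLC and 12.23, 12.11 and 12.38 in Otx2-null EpiLC, a difference of -1.52 ± 0.14 (adjusted p = 3.14e-09). Spc24 fell by 1.33, Spc25 by 1.23 and Ndc80 by 0.87 on the log2 scale, and all 4 NDC80 subunits thus passed the test. The largest rise was that of Prc1, with 13.09, 12.77 and 12.97 in Otx2-null PGCLC and 11.25, 11.14 and 10.93 in Otx2-null EpiLC, a difference of 1.84 ± 0.16 (adjusted p = 7.21e-10).

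Further rises in Otx2-null cells came from regulators of the checkpoint, spindle and anaphase. Over the whole set 24 members did not overlap between these groups, against 66.7% of all genes. Bub1b had 10.84, 11.00 and 11.01 in Otx2-null PGCLC and 9.51, 9.30 and 9.41 in Otx2-null EpiLC, a difference of 1.55 ± 0.18. Kif2c differed by 1.48 ± 0.17, Espl1 by 1.23 ± 0.20 and Plk1 by 1.21 ± 0.20, with adjusted p-values of 4.84e-08, 9.34e-06 and 1.65e-05. Pttg1, the securin that restrains separase, was undetected in Otx2-null EpiLC and at least 1.98-fold higher in Otx2-null PGCLC (adjusted p = 3.24e-06), and Cenpf, undetected there on both of its probes, was at least 1.75-fold higher. The authors' normalized table gave only 0.07 for Pttg1 and 0.05 for Cenpf, and -4.83 for Nuf2. Tpx2 rose by 0.88 ± 0.22 and Aurkb by 0.69 ± 0.15.

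Smaller calls in Otx2-null cells depended on single arrays. Birc5 (-0.40 ± 0.13) lost its call without Otx2-null EpiLC replicate 1 (-0.30). Cdk1 (-0.48 ± 0.17) lost it without Otx2-null EpiLC replicate 2 (-0.41) or Otx2-null PGCLC replicate 2 (-0.36), and Top2a (0.60 ± 0.20) without Otx2-null PGCLC replicate 1 (0.51). For Top2a the mean of its probes, 0.17, did not pass the test either. Ccna2, the cyclin of S phase and mitotic entry, (0.59 ± 0.20) lost it without Otx2-null EpiLC replicates 2 (0.48) or 3 (0.49) or Otx2-null PGCLC replicate 3 (0.51). Aurka (0.41 ± 0.16) and Incenp (0.42 ± 0.18) each lost it without any one of the Otx2-null PGCLC replicates (0.39 to 0.42 for Aurka, 0.38 to 0.47 for Incenp) or without Otx2-null EpiLC replicate 3 (0.31 and 0.20). Brightest and other probes disagreed in direction for Kif23 (0.62 and -0.68), Cdc20 (0.62 and -0.79), Cdc25b (0.97 and -0.58) and Cdk1 (-0.48 and 0.42). The brighter Cdc25b probe was detected on none of the 3 Otx2-null EpiLC arrays and the other on 2 of them, so the size of 0.97 was not measured.

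Whether Otx2 changed the induction response itself was tested as the difference of the 2 changes. Of 31 members, 2 changed more positively in Otx2-null than in WT cells, Pttg1 by 0.89 ± 0.26 (adjusted p = 0.0193) and Nusap1 by 0.79 ± 0.26 (adjusted p = 0.0429), where 7.97% of all genes were higher by this test and 8.45% lower. Pttg1 was detected on none of the 3 Otx2-null EpiLC arrays and on 1 of the 3 WT EpiLC arrays, so the size of this difference was not measured, and the authors' normalized table gave 0.06. The call of Pttg1 was lost without WT EpiLC replicate 1 (0.64) or Otx2-null PGCLC replicate 1 (0.82). The call of Nusap1 ended without any one of WT EpiLC replicates 1, 2 and 3, WT PGCLC replicates 2 and 3, Otx2-null EpiLC replicates 1 and 2 and Otx2-null PGCLC replicates 1 and 3, at 0.68 to 0.81, and the mean of its probes gave 0.30. For the NDC80 subunits the differences were -0.29 ± 0.31 for Ndc80, -0.24 ± 0.24 for Nuf2, 0.15 ± 0.22 for Spc24 and -0.26 ± 0.27 for Spc25. Mad2l1 gave 0.03 ± 0.20 and Prc1 0.44 ± 0.22, and neither passed the test, which does not show that the lines respond alike.

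In Otx2-null day-6 cells without cytokines against Otx2-null EpiLC, 15 of 31 members rose and 9 fell, against 35.8% and 30.2% of all genes (66.0% called in all). The groups did not overlap for 21 members and 67.5% of all genes, so that the share falling and the share apart lie near those of all genes. This comparison shares its EpiLC arrays with the one above. Nuf2 had 5.77, 6.30 and 5.96 without cytokines, a difference of -3.24 ± 0.17 (adjusted p = 2.11e-13) from the Otx2-null EpiLC values given above. Mad2l1 differed by -1.68 ± 0.14, Spc25 by -1.47 ± 0.19, Spc24 by -1.17 ± 0.16, Cdk1 by -0.94 ± 0.17, Ndc80 by -0.77 ± 0.22, Birc5 by -0.72 ± 0.13 and Cenpa by -0.63 ± 0.15. Each of these 8 genes fell in this comparison, and their calls held with every single array left out.

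On the rising side, Prc1 had 12.71, 12.83 and 13.06 without cytokines, a difference of 1.76 ± 0.16 (adjusted p = 1.25e-09) from EpiLC. Espl1 differed by 1.35 ± 0.20, Kif2c by 1.21 ± 0.17, Bub1b by 1.09 ± 0.18 and Plk1 by 0.89 ± 0.20. Cenpf, undetected in Otx2-null EpiLC on both of its probes, was at least 1.53-fold higher, but by only 0.03 on the log2 scale in the authors' normalized table. Lower-ranking calls ended when single arrays were left out: without replicate 3 of the cytokine-free cells Cdc20 (0.54) gave 0.39 and Cdc25b (0.66) gave 0.47, and without replicate 2 Tpx2 (0.64) gave 0.55. Another probe of Cdc20 (-0.87) and another of Cdc25b (-0.56) were called in the opposite direction, and the mean of probes gave -0.07 for Cdc20 and 0.05 for Cdc25b. The brighter Cdc25b probe was undetected in Otx2-null EpiLC, so the size of its rise was not measured. Kif23 was called higher on its brightest probe, while another had 7.61, 7.65 and 7.39 without cytokines against 8.72, 8.40 and 8.53 in EpiLC. Tpx2 also lost its call without Otx2-null EpiLC replicate 2 (0.52), and other calls rested on several arrays. Cdc25c (0.39) lost its call without Otx2-null EpiLC replicates 1 or 3 or any cytokine-free replicate (0.30 to 0.42). Cep152 (0.39) lost it without Otx2-null EpiLC replicates 2 or 3 or cytokine-free replicates 1 or 3 (0.29 to 0.40), and Top2a (0.49) without those same arrays (0.38 to 0.46). The direction of Top2a turned to -0.05 with the mean of its probes, the others giving -0.63 and 0.00. Incenp (0.48) lost it without Otx2-null EpiLC replicate 3 or cytokine-free replicates 1 or 3 (0.27 to 0.47), and Nusap1 (-0.45) without Otx2-null EpiLC replicate 3 or cytokine-free replicates 1 or 2 (-0.35 to -0.29).

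The direct test of cytokines compared Otx2-null PGCLC with Otx2-null day-6 cells without cytokines. There 2 of 31 members were higher with cytokines, where 8.38% of all genes were higher and 7.37% lower. Pttg1 had 6.41, 6.32 and 6.10 with cytokines and 5.25, 5.10 and 5.41 without, a difference of 1.02 ± 0.18 (adjusted p = 0.000273). All 3 arrays with cytokines were above all 3 without. The signal of Pttg1 lies near the background, and the size of its differences depends on the scale: the authors' normalized table gave 0.06 for this one and 0.05 to 0.07 for its other called differences, all still past the test. Nusap1 had 10.90, 10.50 and 10.91 with cytokines and 9.94, 9.88 and 10.64 without, groups that overlapped, and its difference of 0.62 ± 0.19 (adjusted p = 0.026) lost its call without replicate 1 (0.55) or 3 (0.55) of the cytokine-treated cells or replicate 1 (0.51) or 2 (0.48) of the untreated ones. Bub1b (0.46 ± 0.18), Cdk1 (0.46 ± 0.17) and Nuf2 (0.08 ± 0.17) did not pass the test.

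**Figure D3:**
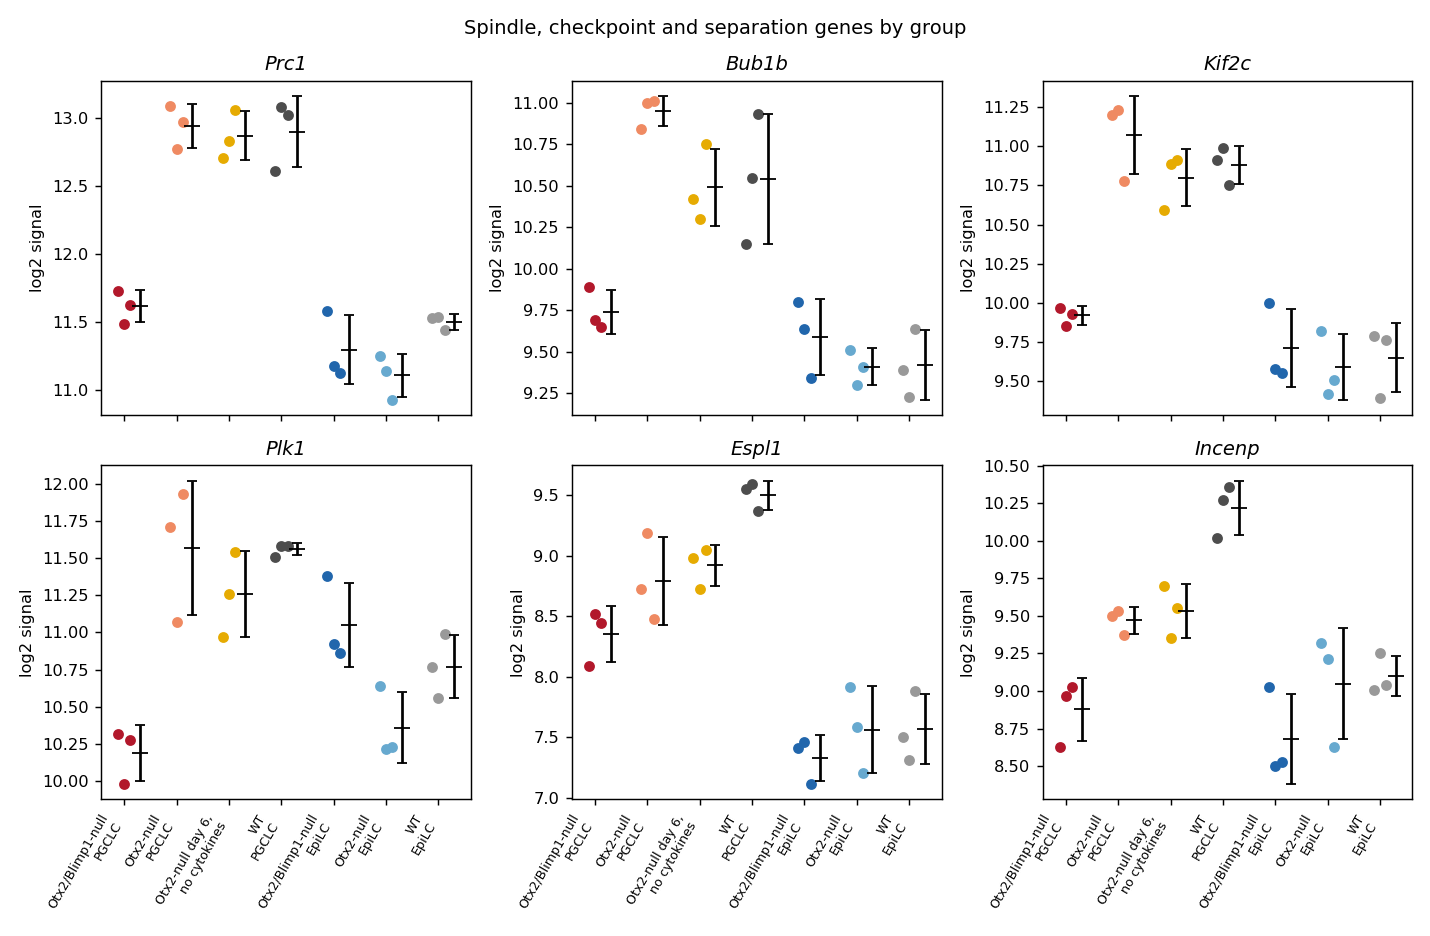
Log2 signal of Prc1, Bub1b, Kif2c, Plk1, Espl1 and Incenp by group, with a point for each of 3 arrays and a bar for the mean ± SD. Prc1 means are 11.62 in Otx2/Blimp1-null PGCLC, 12.87 to 12.94 in the other day-6 groups and 11.11 to 11.50 in EpiLC.

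Between the sorted populations, Otx2-null PGCLC differed from WT PGCLC in 7 of 31 members, 3 higher and 4 lower, against 8.94% and 12.4% of all genes. The groups did not overlap for 9 members and 38.0% of all genes. Incenp had 9.5, 9.53 and 9.37 in Otx2-null PGCLC and 10.02, 10.27 and 10.36 in WT PGCLC, a difference of -0.75 ± 0.18 (adjusted p = 0.00417). Espl1 had 8.72, 9.19 and 8.48 in Otx2-null PGCLC and 9.55, 9.59 and 9.37 in WT PGCLC, a difference of -0.71 ± 0.20 (adjusted p = 0.0122) that lost its call without Otx2-null PGCLC replicate 3 (-0.55). Pttg1 had 6.41, 6.32 and 6.10 in Otx2-null PGCLC and 5.48, 5.44 and 5.57 in WT PGCLC, a difference of 0.78 ± 0.18 (adjusted p = 0.00294). These 3 genes did not overlap between the groups.

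Mad2l1 was higher in Otx2-null PGCLC by 0.49 ± 0.14, a call lost without WT PGCLC replicate 2 (0.40) or Otx2-null PGCLC replicate 3 (0.39). The groups overlapped on its second probe, with 8.57, 8.64 and 8.83 in Otx2-null PGCLC and 8.84, 8.35 and 8.36 in WT PGCLC. Birc5 was higher by 0.45 ± 0.13, lost without WT PGCLC replicate 1 (0.38) or Otx2-null PGCLC replicate 2 (0.38). Kif23 (-0.53 ± 0.16) and Top2a (-0.64 ± 0.20) were lower, each lost without WT PGCLC replicates 2 or 3 or Otx2-null PGCLC replicates 2 or 3, at -0.51 to -0.39 for Kif23 and -0.65 to -0.40 for Top2a. For Top2a another probe was higher in Otx2-null PGCLC by 0.89. The mean of Kif23's probes gave -0.21 and did not pass the test. The count of 7 fell to 4 without WT PGCLC replicate 2, Otx2-null PGCLC replicate 2 or Otx2-null PGCLC replicate 3. Nuf2 (0.31 ± 0.17), Plk1 (0.01 ± 0.20), Prc1 (0.04 ± 0.16) and Aurka (-0.01 ± 0.16) did not pass the test.

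Otx2-null day-6 cells without cytokines, set against WT PGCLC, differed in genotype and in treatment together. There 5 of 31 members were lower, where 14.2% of all genes were lower and 10.2% higher. The groups did not overlap for 9 members and 41.1% of all genes. Incenp differed by -0.69 ± 0.18 (adjusted p = 0.0072), Top2a by -0.75 ± 0.20, Cdc25b by -0.61 ± 0.22, Espl1 by -0.59 ± 0.20 and Cenpf by -0.51 ± 0.16. The call of Incenp held with every single array left out. The count was 3 without WT PGCLC replicate 2 or cytokine-free replicate 1, 2 without WT PGCLC replicate 3 and 1 without cytokine-free replicate 2, and the mean of Top2a's probes gave -0.02.

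In cells lacking both Otx2 and Blimp1, 10 members passed the test on induction. In Otx2/Blimp1-null PGCLC against Otx2/Blimp1-null EpiLC, 5 of 31 members rose and 5 fell, against 20.5% and 22.8% of all genes (43.2% called in all), with a median of 0.14 for the members and -0.04 for all genes. Nuf2 had 7.81, 8.09 and 8.10 in Otx2/Blimp1-null PGCLC and 8.33, 8.80 and 9.01 in Otx2/Blimp1-null EpiLC, a difference of -0.71 ± 0.17 (adjusted p = 0.00159). The groups were separate, but the gap was small beside that in the other lines. Spc25 rose, with 10.01, 10.10 and 9.88 in Otx2/Blimp1-null PGCLC and 8.95, 9.24 and 9.15 in Otx2/Blimp1-null EpiLC, a difference of 0.89 ± 0.19 (adjusted p = 0.000673). Mad2l1 (0.16 ± 0.14), Spc24 (-0.04 ± 0.16), Ndc80 (0.38 ± 0.22) and Cdk1 (0.22 ± 0.17) did not pass the test. A second probe of Mad2l1 was higher, with 10.77, 10.22 and 10.36 in Otx2/Blimp1-null PGCLC and 9.66, 9.75 and 9.82 in Otx2/Blimp1-null EpiLC. For Cdk1 a dimmer probe, undetected in these EpiLC, had 5.30, 5.83 and 5.84 in PGCLC against 4.94, 5.02 and 4.98.

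Plk1 fell in the double-null line, with 10.32, 9.98 and 10.28 in Otx2/Blimp1-null PGCLC and 11.38, 10.92 and 10.86 in Otx2/Blimp1-null EpiLC, a difference of -0.86 ± 0.20 (adjusted p = 0.00139). Bub3, which carries Bub1b to kinetochores, fell by 0.75 on the log2 scale (SE 0.15, adjusted p = 0.000312). Cdc20, the activator of the anaphase-promoting complex, fell by 0.51 (lost without Otx2/Blimp1-null EpiLC replicate 1, -0.37, or Otx2/Blimp1-null PGCLC replicate 2, -0.40), and its 3 other probes fell too. Aurka fell by 0.49, lost without Otx2/Blimp1-null EpiLC replicate 1 (-0.46) or 3 (-0.47) or Otx2/Blimp1-null PGCLC replicate 2 (-0.43). Prc1 (0.32 ± 0.16), Kif2c (0.21 ± 0.17) and Bub1b (0.15 ± 0.18), which rose in the other lines, did not pass the test.

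Among the 5 rises, Espl1 had 8.09, 8.52 and 8.44 in Otx2/Blimp1-null PGCLC and 7.41, 7.46 and 7.11 in Otx2/Blimp1-null EpiLC, a difference of 1.02 ± 0.20 (adjusted p = 0.000201). Pttg1 had 6.13, 6.40 and 6.18 in Otx2/Blimp1-null PGCLC and 4.88, 5.21 and 5.36 in Otx2/Blimp1-null EpiLC, a difference of 1.09 ± 0.18 (adjusted p = 3.2e-05). Neither gene overlapped between the groups, as was so for 14 members and 51.9% of all genes. Cep152, which recruits the kinase that starts new centrioles, rose by 1.29 ± 0.17, and Ttk was called higher. The bound of 1.09-fold for Ttk holds for the means only. Of its PGCLC values of 5.78, 5.07 and 5.09, only that of replicate 1 exceeded the lowest detected signals of the EpiLC arrays (5.16 to 5.22). Ttk was undetected in the EpiLC, and its call ended without any one of the 3 EpiLC replicates (0.56 to 0.65) or PGCLC replicate 1 (0.38).

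**Figure D4:**
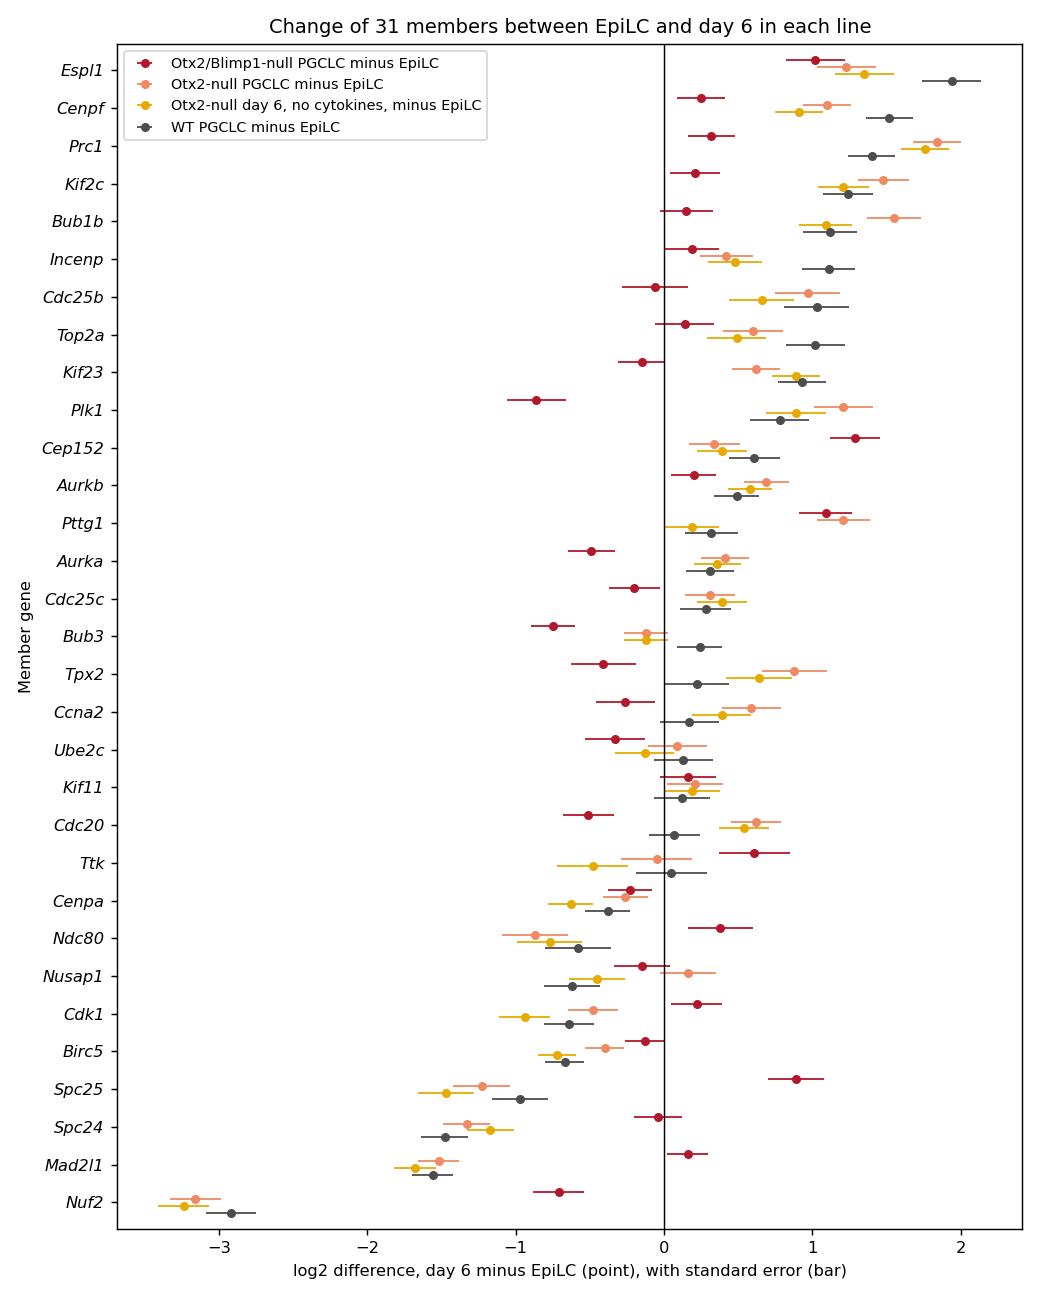
Log2 difference (day 6 minus EpiLC of the same line) of the 31 members with its standard error, in Otx2/Blimp1-null, Otx2-null with and without cytokines, and WT cells, ordered by the WT value. For Nuf2 the differences are -0.71, -3.16, -3.24 and -2.92, and for Plk1 -0.86, 1.21, 0.89 and 0.78.

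The difference between these responses was tested directly. The change on induction differed between the Otx2/Blimp1-null and Otx2-null lines for 19 of 31 members, 7 more positive and 12 more negative in the double-null line, against 20.1% and 28.7% of all genes (48.8% called in all). The positive differences were 2.45 ± 0.24 for Nuf2 (adjusted p = 8.1e-08), 2.12 ± 0.27 for Spc25, 1.69 ± 0.20 for Mad2l1, 1.29 ± 0.22 for Spc24, 1.25 ± 0.31 for Ndc80, 0.94 ± 0.24 for Cep152 and 0.70 ± 0.24 for Cdk1. For Cep152 the direction turned in the authors' normalized table, which gave -0.61. All 4 NDC80 subunits were thus among the 7. The largest negative differences were -2.07 ± 0.29 for Plk1 (adjusted p = 4.4e-06), -1.51 ± 0.22 for Prc1, -1.39 ± 0.25 for Bub1b, -1.30 ± 0.32 for Tpx2 and -1.27 ± 0.24 for Kif2c. Calls that ended without single arrays were those of Cdk1, at 0.58 without Otx2-null PGCLC replicate 2 and 0.63 without Otx2/Blimp1-null EpiLC replicate 1, and of Bub3 (-0.64), at -0.55 without Otx2-null EpiLC replicate 3.

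At day 6, Otx2/Blimp1-null PGCLC differed from Otx2-null PGCLC in 21 of 31 members, where 48.3% of all genes were called. Of these, 6 were higher and 15 lower, against 20.0% and 28.3% of all genes, and the median was -0.45 for the members and -0.07 for all genes. Nuf2 had 7.81, 8.09 and 8.10 in Otx2/Blimp1-null PGCLC and 6.00, 6.25 and 6.00 in Otx2-null PGCLC, a difference of 1.91 ± 0.17 or 3.76-fold (adjusted p = 1.31e-08). Mad2l1 had 12.29, 12.05 and 12.13 in Otx2/Blimp1-null PGCLC and 10.68, 10.56 and 10.91 in Otx2-null PGCLC, a difference of 1.44 ± 0.14 (adjusted p = 4.58e-08). Spc25 (1.37 ± 0.19) and Spc24 (0.96 ± 0.16) were higher as well, each on both of its probes. Cenpa did not pass the test on its brighter probe. Its dimmer probe had 7.10, 7.51 and 7.41 in Otx2/Blimp1-null PGCLC and 5.76, 5.47 and 5.97 in Otx2-null PGCLC.

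The other two higher genes rest on single arrays. Ndc80 (0.55 ± 0.22, adjusted p = 0.0463) lost its call without Otx2-null PGCLC replicate 2 (0.32) or any one of the Otx2/Blimp1-null PGCLC replicates (0.42 to 0.62). Cdk1 (0.51 ± 0.17) lost it without Otx2-null PGCLC replicate 2 (0.39) or Otx2/Blimp1-null PGCLC replicate 3 (0.47).

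The lower genes were led by Plk1, with 10.32, 9.98 and 10.28 in Otx2/Blimp1-null PGCLC and 11.71, 11.07 and 11.93 in Otx2-null PGCLC, a difference of -1.38 ± 0.20 (adjusted p = 6.94e-06). Prc1 had 11.73, 11.49 and 11.63 in Otx2/Blimp1-null PGCLC and 13.09, 12.77 and 12.97 in Otx2-null PGCLC, a difference of -1.32 ± 0.16 (adjusted p = 4.92e-07). Bub1b had 9.89, 9.69 and 9.65 in Otx2/Blimp1-null PGCLC and 10.84, 11.00 and 11.01 in Otx2-null PGCLC, a difference of -1.21 ± 0.18 (adjusted p = 6.71e-06). For these 3 genes every double-null array lay below every Otx2-null array. Kif2c differed by -1.15 ± 0.17, Cdc20 by -0.88 ± 0.17, Tpx2 by -0.84 ± 0.22, Cenpf by -0.82 ± 0.16, Cep152 by -0.75 ± 0.17 and Aurka by -0.60 ± 0.16.

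Several of the other lower genes were less secure. Top2a differed by -0.90 ± 0.20 on its brightest probe and by -0.23 as the mean of its probes, and Kif23 by -0.76 ± 0.16 with 1 further probe lower and 1 at 0.32. Incenp (-0.59 ± 0.18) lost its call without Otx2/Blimp1-null PGCLC replicate 1 (-0.47) and Aurkb (-0.48 ± 0.15) without replicate 3 (-0.41). Cdc25b (-0.65 ± 0.22) lost it without Otx2-null PGCLC replicate 2 (-0.48) or Otx2/Blimp1-null PGCLC replicate 2 (-0.55). Ccna2 (-0.48 ± 0.20, adjusted p = 0.0442) lost it without Otx2-null PGCLC replicates 1 or 3 or any Otx2/Blimp1-null PGCLC replicate (-0.54 to -0.41). Espl1 (-0.45 ± 0.20) and Pttg1 (-0.04 ± 0.18) did not pass the test.

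Against WT PGCLC, the Otx2/Blimp1-null PGCLC had 7 of 31 members higher and 16 lower, where 22.5% of all genes were higher and 34.2% lower. This comparison shares the Otx2/Blimp1-null arrays with the previous one, so its values are given beside it and not as further evidence. The higher genes were Nuf2 (2.23 ± 0.17), Mad2l1 (1.93 ± 0.14), Spc25 (1.41 ± 0.19), Spc24 (1.20 ± 0.16), Cdk1 (0.88 ± 0.17), Pttg1 (0.74 ± 0.18) and Birc5 (0.68 ± 0.13). The largest falls were those of Plk1 (-1.37 ± 0.20), Incenp (-1.34 ± 0.18), Kif23 (-1.30 ± 0.16), Prc1 (-1.28 ± 0.16) and Espl1 (-1.16 ± 0.20), after Top2a at -1.54 ± 0.20. Top2a and Cdc20 (-0.60 ± 0.17) had another probe called higher, by 0.85 and 0.57, and the mean of their probes gave -0.03 and -0.32. Cenpa did not pass on its brighter probe, while its dimmer probe had 7.10, 7.51 and 7.41 against 5.66, 5.59 and 6.33 in WT PGCLC. No call of a member in this comparison was lost by leaving out a single array.

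At day 6 Incenp differed in level between the lines, highest in WT and lowest in Otx2/Blimp1-null PGCLC. Kif23 and Cenpf had the same order on their brightest probes, though not on their other probes, and Nuf2 and Mad2l1 had the reverse order. Incenp had 8.63, 8.97 and 9.03 in Otx2/Blimp1-null PGCLC, 9.5, 9.53 and 9.37 in Otx2-null PGCLC and 10.02, 10.27 and 10.36 in WT PGCLC. For Incenp no array of one line overlapped with another line. The Incenp difference between Otx2/Blimp1-null and Otx2-null PGCLC lost its call with 1 array left out, as given above. Cenpf had 4.98, 5.56 and 5.30 in Otx2/Blimp1-null PGCLC and 6.49, 6.28 and 6.47 in WT PGCLC, a difference of -1.14 ± 0.16 (adjusted p = 1.68e-06), while its dimmer probe, at a mean of 4.97, gave -0.17.

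Before induction the lines differed in fewer members. Otx2-null EpiLC had 3 of 31 members higher and 2 lower than WT EpiLC, where 8.22% of all genes were higher and 10.5% lower (18.7% in all). Nuf2 was higher by 0.56 ± 0.17, Cep152 by 0.48 ± 0.17 and Mad2l1 by 0.46 ± 0.14, and Tpx2 was lower by 0.71 and Ccna2 by 0.56 on the log2 scale (SE 0.22 and 0.20). The highest of these adjusted p-values was 0.048 and the lowest 0.0254. Each of the 5 calls was lost without at least 4 of the 6 arrays in turn, and the count ranged from 0 (without WT EpiLC replicate 3) to 3 (without Otx2-null EpiLC replicate 3), with 1 without WT EpiLC replicates 1 or 2 and 2 without Otx2-null EpiLC replicates 1 or 2. With all arrays, 7 members had an unadjusted limma p under 0.05. Bub1b (-0.01 ± 0.18) and Kif2c (-0.06 ± 0.17) did not pass the test.

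Otx2/Blimp1-null EpiLC had 2 of 31 members higher and 5 lower than Otx2-null EpiLC, where 9.79% of all genes were higher and 6.21% lower (16.0% in all). Cep152 had 5.64, 5.35 and 5.73 in Otx2/Blimp1-null EpiLC and 7.53, 7.16 and 7.11 in Otx2-null EpiLC, a difference of -1.70 ± 0.17 or 3.24-fold (adjusted p = 2.1e-06). The double-null arrays were also below the 7.10, 6.72 and 6.55 of WT EpiLC, with a difference of -1.22 ± 0.17 (adjusted p = 1.53e-05). Cep152 has 1 kept probe, and its signal rose to 6.67, 6.81 and 7.09 in Otx2/Blimp1-null PGCLC, which remained below the 7.71, 7.61 and 7.51 of Otx2-null PGCLC. Its difference from Otx2-null EpiLC held in every alternative processing and with every array left out, whereas the authors' normalized table gave -0.37 against WT EpiLC and 0.36 for its change on induction, which did not pass the test there.

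The other double-null EpiLC differences were smaller. Bub3 was higher by 0.51 ± 0.15 against Otx2-null and by 0.81 ± 0.15 against WT EpiLC, with 8.96, 8.95 and 9.08 in Otx2/Blimp1-null, 8.63, 8.51 and 8.32 in Otx2-null and 8.19, 8.29 and 8.06 in WT EpiLC. The double-null values exceeded all others. Spc25 (-0.74 ± 0.19), Ndc80 (-0.70 ± 0.22) and Nuf2 (-0.54 ± 0.17) were lower and Plk1 (0.69 ± 0.20) higher than in Otx2-null EpiLC. Ttk was called lower, with a bound of 1.22-fold that holds for the means only. It was detected on none of the double-null EpiLC arrays (4.74, 4.59 and 4.77) and on 2 of the 3 Otx2-null EpiLC arrays (5.90, 5.83 and 4.71). These values overlapped. The call of Cep152 alone held with every single array left out. The count of 7 was 4 without Otx2-null EpiLC replicate 2 or Otx2/Blimp1-null EpiLC replicate 2, 3 without Otx2-null EpiLC replicate 3 and 1 without Otx2/Blimp1-null EpiLC replicate 1. Against WT EpiLC, 1 member was higher and 2 were lower in Otx2/Blimp1-null EpiLC, where 9.48% of all genes were higher and 8.64% lower (18.1% in all), namely Bub3, Cep152 and Top2a (-0.66 ± 0.20, or -0.16 as the mean of its probes). The call of Top2a ended without WT EpiLC replicates 1 or 2 or Otx2/Blimp1-null EpiLC replicates 2 or 3 (-0.66 to -0.61).

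**Figure D5:**
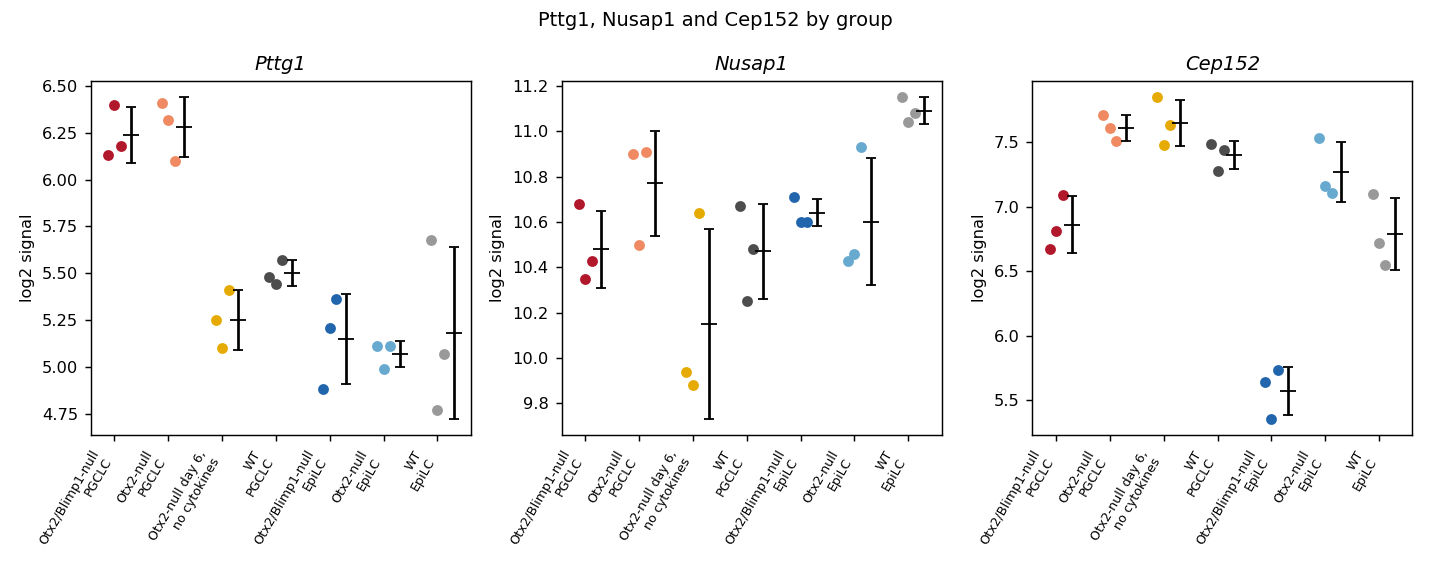
Log2 signal of Pttg1, Nusap1 and Cep152 by group, with a point for each of 3 arrays and a bar for the mean ± SD. Pttg1 means are 6.24 and 6.28 in the Otx2/Blimp1-null and Otx2-null PGCLC and 5.07 to 5.50 elsewhere, and Cep152 is lowest in Otx2/Blimp1-null EpiLC at 5.57.

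Across the 7 group means, members of the NDC80 complex varied together. Pearson correlations among Ndc80, Nuf2, Spc24 and Spc25 were 0.775 to 0.981 over their 6 pairs, and Mad2l1 correlated with them at 0.713 to 0.958. Prc1, Bub1b, Kif2c and Plk1 correlated with each other at 0.809 to 0.992 and with the NDC80 subunits at -0.992 to -0.756. These describe 7 means that share arrays and normalization, and the genes were set side by side after their values were seen. Both blocks hold genes whose products act at the kinetochore.

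Other genes of mitosis were counted from lists written with earlier results of these data known. Of 150 such genes 129 were tested, and in WT PGCLC against WT EpiLC 57 rose and 44 fell, where 35.4% of all genes rose and 27.4% fell. Of 32 other kinetochore and centromere genes 9 rose and 16 fell, with a median of -0.46, against 0.06 for all genes. Cenpk, a constitutive centromere protein, fell by 2.94 and Cenpp, another such protein, fell by 2.06, whereas the cohesin protector Sgo2a rose by 2.66. Of 28 other spindle and cytokinesis genes 16 rose and 4 fell, with a median of 0.69, among them Anln (1.42 ± 0.15), which organises the contractile ring, and the kinesin gene Kif18b (1.28 ± 0.15). Haus1, a subunit of augmin, fell by 2.05.

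Of 19 condensin and cohesin genes 11 rose and 6 fell in WT PGCLC, with a median of 0.88, led by the condensin II subunit gene Ncaph2 (2.56 ± 0.15). Mybl2, which activates late cell cycle genes, rose by 4.01 ± 0.15, and the Cdk1-binding subunit genes Cks1b (-2.33 ± 0.22) and Cks2 (-1.86 ± 0.19) fell. In Otx2/Blimp1-null against Otx2-null PGCLC, 30 of the 129 genes were higher and 54 lower, where 20.0% of all genes were higher and 28.3% lower. There 16 of 32 kinetochore genes were higher and 9 lower, and 2 of 28 spindle genes were higher and 15 lower. Haus1 was higher by 1.69 ± 0.16, Cks2 by 1.97 ± 0.19 and Itgb3bp, a centromere protein gene, by 2.10 ± 0.21. Mybl2 differed by -1.44 ± 0.15 and Kif18b by -1.58 ± 0.15.

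Other measures moved with these comparisons. More probes were detected at day 6 than in EpiLC, as given above. Across 11640 genes the Spearman correlation of the log2 difference with the gene's genomic span was 0.211 in WT induction and -0.265 in Otx2/Blimp1-null against Otx2-null PGCLC, and across the 31 members the values were 0.308 and -0.306. Genes share arrays and are not independent replicates. Of 6 trophoblast and amnion markers 5 rose in WT PGCLC, where their mean log2 signal was 7.64 to 8.09 per array against 5.79 to 5.88 in WT EpiLC, and of 4 blood and endothelium markers 3 rose, to 7.12 to 7.21 against 4.71 to 5.02. All of these markers were detected on some WT PGCLC array. In Otx2-null PGCLC the trophoblast and amnion mean was 5.86 to 6.13 against 5.52 to 5.76 in Otx2-null EpiLC. The blood and endothelium mean was 5.44 to 5.52 in Otx2-null PGCLC against 4.9 to 5.09 in Otx2-null EpiLC. Germ cell markers averaged 7.46 to 7.73 in Otx2/Blimp1-null, 8.37 to 8.59 in Otx2-null and 9.14 to 9.35 in WT PGCLC. The part of these measures in the members' changes was not tested.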

How the data were processed

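RNA of 21 samples was measured on single-colour Illumina bead arrays of 45281 probes, 34885 of them with 1 gene name, 18 with several and 10378 with none. The deposited intensity table, though called non-normalized, had been background-subtracted and equalized between arrays by the authors, judging from its values (the highest is 30894.6 on every array). A second deposited table holds log2 values, made with limma per the submitters' processing notes (version not given in the sources used here). Both deposited tables give a detection p-value per probe and array, per the file headers. The intensity column of Otx2-null PGCLC replicate 2 was in another probe order (rank correlation 0.005469 with its normalized column) and was put back by rank. After this 50 detection p-values differed, so those of the normalized table were used.

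From the intensities, neqc of limma 3.58.1 under R 4.3.3 (offset 16) gave background-corrected, quantile-normalized log2 signals. The filter kept 21647 probes, those whose detection p was below 0.05 on 3 or more arrays, and each gene was represented by its kept probe with the highest mean. One limma model (lmFit, eBayes, two-sided) with 7 groups as its only factor gave 12 comparisons of groups and 2 of induction changes, adjusted by Benjamini-Hochberg over 11649 genes and called at 0.05. The number of arrays, 3 per group, limits the precision. For a member whose brightest probe was undetected on all arrays of a group, the lowest detected signal of each array replaced a lower value and the fold is given as a bound.

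The members and gene lists were chosen with earlier results of these data known. Any member may be named. In each comparison the up to 5 largest rises and falls were described first, and up to 4 genes with the smallest p from each other list. The lists were other kinetochore, spindle and cytokinesis, centriole, anaphase-promoting complex, condensin and cohesin, and mitotic regulator genes, G1 cyclins and inhibitors, and markers of germ cells, naive pluripotency, epiblast, mesoderm, endoderm, trophoblast and amnion, neural cells, and blood and endothelium. Alternatives were the authors' normalized log2 table, an offset of 50 without background model, a detection p of 0.01, no filter, the mean of a gene's kept probes, the replicate number as a block, eBayes with trend and robust settings, array weights, a fit of only the groups compared and leaving out each array. Scripts were tested on simulated data. The software was Python 3.11.15 with numpy 2.4.6, pandas 2.3.3 and matplotlib 3.10.9, and in R data.table (version 1.17.8).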

Additional observations from a re-analysis of the deposited data

Results flagged for a closer look

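The change on induction differed between lines, by a test of the difference itself in limma, for 2 of 31 members between Otx2-null and WT cells. Between Otx2/Blimp1-null and Otx2-null cells it differed for 19 of 31. Of all genes, 16.4% and 48.8% were called by these tests. Between Otx2-null and WT cells the difference was 0.89 for Pttg1 and 0.79 for Nusap1, of which Pttg1 was detected on none of the 3 Otx2-null EpiLC arrays and 1 of the 3 WT EpiLC arrays. The authors' normalized table gave 0.06 for Pttg1, and the mean of its probes gave 0.30 for Nusap1. The call was lost under 2 of 21 alternatives for Pttg1 and 12 of 21 for Nusap1. Between Otx2/Blimp1-null and Otx2-null cells the difference was positive for Nuf2 (2.45), Spc25 (2.12), Mad2l1 (1.69), Spc24 (1.29), Ndc80 (1.25), Cep152 (0.94, turning to -0.61 in the authors' normalized table) and Cdk1 (0.70). It was negative for Plk1 (-2.07), Prc1 (-1.51), Bub1b (-1.39), Tpx2 (-1.30), Kif2c (-1.27), Cdc20 (-1.12), Cdc25b (-1.03), Aurka (-0.90), Ccna2 (-0.85), Cenpf (-0.85), Kif23 (-0.77) and Bub3 (-0.64). Cdc25b, Ccna2 and Cenpf have signals near the background, and Cdc25b and Kif23 lost the call when the mean of their probes was used (-0.31 for both). Groups of 3 arrays were not searched for outlying samples.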

How the results depend on the processing

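Of 172 called member differences, 102 kept their call and direction under every alternative tried for them, among 2706 values recomputed in all. Direction turned in 4 cases. With the mean of a gene's kept probes, Top2a gave -0.05 and Cdc20 -0.07 in Otx2-null day-6 cells without cytokines against Otx2-null EpiLC, and Top2a gave 0.20 in Otx2-null against WT PGCLC, since their probes disagree. In the authors' normalized table the change of Cep152 on induction, Otx2/Blimp1-null minus Otx2-null, was -0.61, for which the cause was not tested.

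Counts of members called that moved by over 1.5 times were those of the smaller comparisons, and the cause was not tested. For Otx2-null against WT PGCLC (7) the count was 4 with the mean of probes and 12 with array weights. For Otx2-null cells without cytokines against WT PGCLC (5) it was 3 with the authors' table, without a filter or with the mean of probes, and 8 with array weights. With against without cytokines (2) gave 4 with trend and robust settings, 6 with array weights and 1 in a fit of only the groups compared. Otx2-null against WT EpiLC (5) gave 2 with the authors' table or without a filter, 1 with array weights and 0 in a fit of only the groups compared. Otx2/Blimp1-null against Otx2-null EpiLC (7) gave 3 with array weights and 1 in a fit of only the groups compared. Otx2/Blimp1-null against WT EpiLC (3) gave 5 with the offset of 50, the mean of probes or only the groups compared. The induction change of Otx2-null minus WT (2) gave 1 without a filter or with the mean of probes.

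Leaving out 1 array at a time gave counts of 4 to 8 for Otx2-null against WT PGCLC, 1 to 6 for Otx2-null cells without cytokines against WT PGCLC, 1 to 3 for with against without cytokines, 0 to 3 for Otx2-null against WT EpiLC, 1 to 6 for Otx2/Blimp1-null against Otx2-null EpiLC and 0 to 4 for the induction change of Otx2-null minus WT. For the last, the count was 0 without WT EpiLC replicate 1 or Otx2-null PGCLC replicate 1 and 4 without Otx2-null EpiLC replicate 3. For with against without cytokines it was 1 without replicate 1 or 3 of the treated cells or replicate 1 or 2 of the cytokine-free cells. The counts of the induction of WT (19 to 21), Otx2-null with (20 to 23) and without cytokines (18 to 24) and Otx2/Blimp1-null cells (8 to 10), of Otx2/Blimp1-null against Otx2-null PGCLC (17 to 22), WT PGCLC (23 to 25) and, in EpiLC, WT (2 to 4), and of the induction change of Otx2/Blimp1-null minus Otx2-null (18 to 21) moved less. At an unadjusted limma p under 0.05, with all arrays and groups, 7 members differed between Otx2-null and WT EpiLC and 6 in the induction change of Otx2-null minus WT.

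Replicate numbers were not treated as pairs, since the labels do not say what a replicate number shares. The deviations of same-numbered arrays correlated at -0.187 to 0.324, above 0.1 in 16 of 63 pairs. That 13 of 21 arrays correlated best with their own number is a hint from the data that some numbers may be shared. With the replicate number as a block, 169 of the 172 calls were kept and 3 lost, and the counts were 21 for WT induction and 22 for Otx2-null induction. Members near the background (Ccna2, Cdc25b, Ttk, Cenpf, Pttg1) are limited by signal over background.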
